A study of Mus musculus with 161 samples.

Results

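The comparison set untreated CTCF-AID cells (line EN52.9.1), in which the endogenous CTCF protein carries an auxin-inducible degron, against the line EN133.10, in which a full-length CTCF transgene stood in for it. It used 18 of the series' 91 libraries made by chromosome-conformation capture carbon copy (5C): all 4 libraries of the untreated parental line and all 14 of the full-length line treated with auxin and doxycycline (dox) for 4 days, chosen by cell line and treatment as the labels give them. In 5C, ligation junctions between HindIII fragments are counted with a pool of forward and reverse primers, here across the region around Xist and Tsix on the X chromosome of mouse embryonic stem cells. It asked which boundaries, domains and distances of the contact map the transgene left different from endogenous CTCF.

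The cells are male E14Tg2a embryonic stem cells, and both lines carry CTCF-AID at the endogenous alleles and Tir1, the plant factor that links an AID tag to degradation when auxin is present. The full-length line also carries an inducible CTCF cDNA fused to mRuby2, which dox switches on. Its clone is the only one with high expression, in comparison with a full-length line with low expression. The paper reports that even this high expression was well below that of endogenous CTCF-AID, which was itself below that of untagged CTCF. A further 3 groups gave reference levels, namely 3 libraries of untreated, untagged parental cells, 2 of EN133.10 cells given auxin but no dox, and 2 of a full-length line with low expression, with auxin and dox. The source of CTCF, its amount, the drugs and the clone all differ between the groups compared, so their parts in any difference cannot be told apart. The labels do not say whether libraries of 1 line came from separate cultures, and p-values measure the spread between these libraries.

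CTCF is a zinc-finger protein that binds an asymmetric DNA motif and halts cohesin, the ring complex that extrudes chromatin loops. Loops form preferentially between motifs that point toward each other (convergent), and clusters of bound CTCF mark boundaries between topologically associating domains (TADs), within which contacts are frequent and across which they are scarce. The best known boundary of the region lies between the Tsix domain and the Xist domain. Xist is the noncoding RNA that coats and silences the inactive X in female cells, and Tsix is its antisense repressor.

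The 6 boundaries were those used by the study, which located them in earlier libraries of the CTCF-AID line and kept those lost after auxin, so the positions were chosen where endogenous CTCF insulates. Each is a bin of 20 kb in mm9, and the bins are numbered along the chromosome. Boundary 1 (chrX:99151148-99171148) lies inside Nhsl2, boundary 2 (chrX:99411148-99431148) overlaps no annotated gene and boundary 3 (chrX:100451148-100471148) lies inside 4930519F16Rik. Boundary 4 (chrX:100671148-100691148) holds the 3′ end of Tsix and the 5′ end of Xist, boundary 5 (chrX:101211148-101231148) overlaps no annotated gene, and boundary 6 (chrX:103211148-103231148) holds most of Cox7b, a subunit of cytochrome c oxidase, and part of Atp7a, a copper transporter.

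Peaks of FLAG-tagged CTCF, called by the authors in the full-length line, lay in 5 of the 6 boundary bins, with 11 peaks in all. Each peak was searched on both strands for the core letters CCNNNAGNNGGC, which 51.3% of the 1128 peaks on chromosome X held. All 8 peaks with the core in a boundary bin held it on the plus strand, and none lay in the bin of boundary 5. The windows of 30 bases around them are shown because strand decides which motif pairs are convergent below. They are read 5′ to 3′ on the strand of the motif, from the mm9 reference, with the core in capitals.
Boundary 1, intron of Nhsl2, plus strand, chrX:99170401-99170430: tcagatacaCCAGAAGAGGGCactggatcc
Boundary 2, intergenic, plus strand, chrX:99414652-99414681: ctgtatagtCCAGCAGAGGGCactggatgt
Boundary 2, intergenic, plus strand, chrX:99415163-99415192: tcagacacaCCAGAAGAGGGCgtcaaatct
Boundary 3, intron of 4930519F16Rik, plus strand, chrX:100455384-100455413: accaggtgaCCACTAGATGGCggtatagta
Boundary 4, exon of Xist and of Tsix, plus strand, chrX:100677064-100677093: tgaaagaaaCCACTAGAGGGCaggtcacat
Boundary 4, exon of Tsix, plus strand, chrX:100679562-100679591: ctgaataaaCCAGCAGGTGGCagcatgaat
Boundary 6, intron of Cox7b, plus strand, chrX:103214286-103214315: tcaggcacaCCAGCAGGGGGCatcagatcc
Boundary 6, intergenic, plus strand, chrX:103221925-103221954: cttagaaggCCAGAAGAGGGCatcgattcc
Minus-strand cores also lay upstream of several boundaries, and those at boundaries 4 and 5 are shown for contrast. Their distances are counted between the starts of 20-kb bins, so a core can lie nearer to the boundary bin than the distance given.
40 kb upstream of boundary 4, intron of Tsix, minus strand, chrX:100639277-100639306: gcaaaaagtCCACAAGATGGCgatagagac
40 kb upstream of boundary 4, intron of Tsix, minus strand, chrX:100649576-100649605: tcagatataCCAGAAGAGGGCaccagatcc
40 kb upstream of boundary 5, intergenic, minus strand, chrX:101185955-101185984: acctgcatgCCAGAAGAGGGCaccagatcc

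Totals ranged from 5262254 to 23096139 counts over the 16 libraries with complete count matrices, and 27.6% to 59.1% of primer pairs had no count. The corrected (ICEd) matrices came in 2 formats, with forward against reverse primers in parental replicates 1 and 2 and full-length replicates 10 and 11, and symmetric in the rest. The library numbers of these 4 libraries lie close together, and so do those of parental replicates 3 and 4 with full-length replicates 3b and 4b. Each such set of neighbouring numbers is called a run here, although the labels name no run and do not say whether the numbers mark a shared preparation. The letter b marks a second library that carries the same replicate number. The other 10 full-length libraries share a run with no parental library, and within a run 2 libraries against 2 cannot reach an exact p under 0.333, so values within runs are given without a test.

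Insulation at the 6 boundaries was lower with the full-length transgene than with endogenous CTCF. The insulation score compares contacts in a square reaching 100 kb to either side of a bin with the average of all bins, as a negative log2 ratio, so a higher score means fewer contacts across. The mean over the 6 boundaries was 0.71, 0.69, 0.79 and 0.82 in parental replicates 1 to 4. In the full-length libraries its lowest, median and highest values were 0.54, 0.60 and 0.71. Of the 14 full-length libraries, 13 lay below all 4 parental ones. The means were 0.75 ± 0.065 (SD, n = 4) and 0.61 ± 0.040 (SD, n = 14), a difference of −0.15 (p = 0.00131, two-sided exact permutation test over 3060 splits, which allow no p below 0.000654). The difference was −0.097 within the first run and −0.17 within the second, and in both runs the libraries of the groups were apart. With log2 of contacts within over contacts across as the score, it was also −0.15 but was not called (p = 0.107, exact permutation test).

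**Figure D1:**
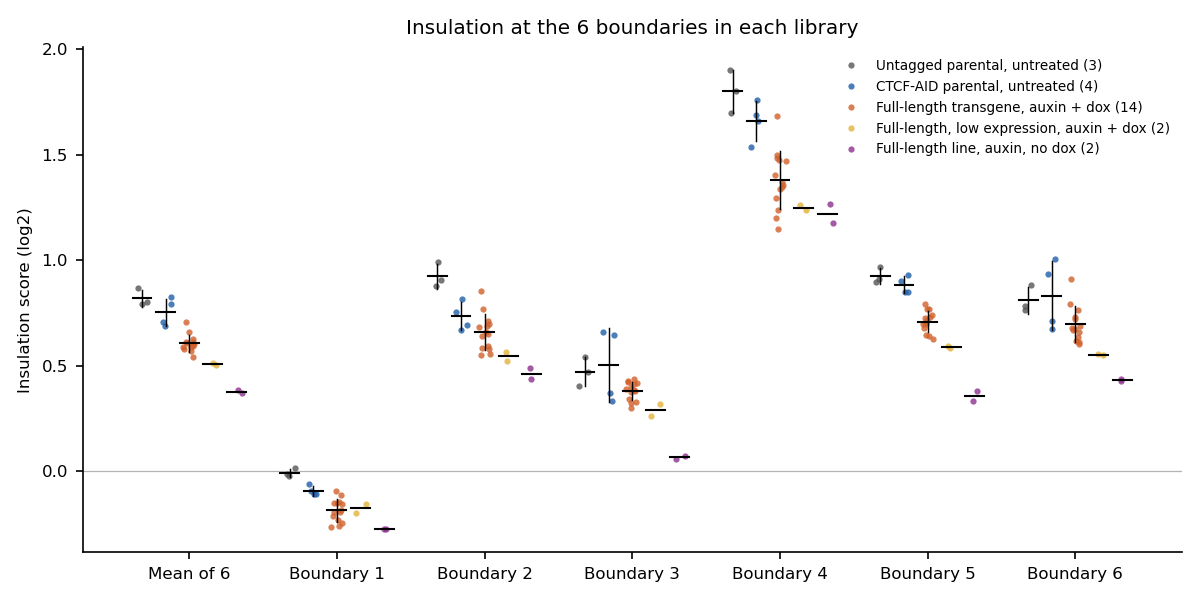
Insulation score (log2) at the 6 boundaries and their mean, with 1 point per library, a bar at each group mean and a vertical line of 1 SD for groups of 3 or more. The full-length mean over boundaries (0.61) lies between that of the untreated parental libraries (0.75) and the 2 libraries without dox (0.37 and 0.38), and at boundary 5 all 14 lie below all 4 parental ones.

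Set against the 2 libraries without dox, the transgene brought the mean back by 61% of the way to the parental level, from 0.38. Among the 14 libraries this share lay within 43.7% and 87.7%. Low-expression cells reached 34.6% (0.50 and 0.51 in its 2 libraries). Untagged cells had the highest mean, 0.82 (n = 3), but their range of 0.79 to 0.87 overlapped that of the parental libraries. These shares are descriptions and carry no test. By their library numbers, the no-dox and low-expression libraries share a run with no parental library. All shares of recovery therefore set levels from different sets of libraries against each other.

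Boundaries 4, 5 and 1 were called lower with the full-length transgene at an adjusted p under 0.05 (exact permutation tests, Benjamini-Hochberg over 6). Read against the whole region, 19.2% of the 193 scored bins were called lower, so 3 of 6 boundaries stands beside about 1 bin in 5.

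Boundary 4, at Xist and Tsix, was the most insulated of the 6 and fell most. It scored 1.76, 1.69, 1.54 and 1.66 in the parental replicates, and its lowest, median and highest full-length values were 1.15, 1.36 and 1.68. The ranges overlapped, with 13 of 14 full-length libraries below every parental one. The means were 1.66 ± 0.093 (SD, n = 4) and 1.38 ± 0.14 (SD, n = 14), a difference of −0.28 (adjusted p = 0.00588, exact permutation test) that corresponds to 21.4% more contact in the square. Without dox the score was 1.17 and 1.27, so full-length cells had on average recovered 36.1% of the loss, the smallest mean share among the 6 boundaries. Single full-length libraries ranged widely, from −16.5% to 105%. At boundary 1, with the next smallest mean share (48.9%), they ranged from 5.08% to 98.9%, and the order of these shares was not tested. In cells with low expression the share at boundary 4 was 6.43%. The difference was −0.37 and −0.38 within the 2 runs. With symmetric matrices alone, where 2 parental libraries remain, it was −0.21 and not called (adjusted p = 0.0791, exact permutation test), and with log2 of contacts within over across −0.29 and not called (adjusted p = 0.0549, same test).

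Boundary 5, beside Rlim, the gene of a ubiquitin ligase that promotes Xist expression, was the only one where the groups did not overlap. Its score was 0.85, 0.85, 0.90 and 0.93 in the parental replicates and from 0.63 through a median of 0.71 to 0.79 in the full-length libraries. The difference was −0.17 (adjusted p = 0.00392, exact permutation test), with −0.16 within each run. With log2 of contacts within over across it was also −0.17 but not called (adjusted p = 0.225, same test). Full-length cells stood 66.9% of the way from no dox (0.36) to parental.

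Boundary 1, in Nhsl2, had little insulation in either group at its own bin. It scored −0.11, −0.11, −0.093 and −0.057 in the parental replicates and from −0.26 to −0.093 in full-length cells, with a median of −0.19. The difference of −0.094 was called (adjusted p = 0.00654, exact permutation test), with 13 of 14 full-length libraries below all parental ones. It was −0.047 and −0.086 within the runs, and the groups overlapped in the second. In the bin directly upstream, which scores higher, the difference was −0.050 and not called (adjusted p = 0.512, same test), and with raw counts scaled and no correction it was −0.13, not called either (adjusted p = 0.0835, same test). The call was also lost with symmetric matrices alone (−0.11, adjusted p = 0.0659) and with log2 of contacts within over across (−0.092, adjusted p = 0.353, same test).

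Boundaries 2, 3 and 6 were not called at their own bins with all libraries. At boundary 2, near Cited1, the gene of a transcriptional coregulator, parental libraries ranged from 0.67 to 0.82 and full-length libraries from 0.55 to 0.85, with a difference of −0.075 (adjusted p = 0.134, exact permutation test). Within the runs it was −0.014 and 0.026. Leaving out full-length replicate 3b, the highest, made it −0.090 and called (adjusted p = 0.0444, same test).

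The parental libraries themselves split at boundaries 3 and 6. Boundary 3 scored 0.34 and 0.37 in parental replicates 1 and 2 and 0.65 and 0.66 in replicates 3 and 4, and full-length libraries lay from 0.30 to 0.44. Its difference of −0.12 (adjusted p = 0.0792, exact permutation test) was 0.030 in the first run and −0.29 in the second, opposite in sign. Boundary 6 scored 0.71 and 0.68 in parental replicates 1 and 2 and 1.01 and 0.94 in replicates 3 and 4, against 0.60 to 0.91 in full-length libraries. Its difference of −0.14 (adjusted p = 0.0792, same test) was −0.017 and −0.15 within the runs. In both cases the split follows the run and the matrix format, whose parts were not tested. Both boundaries were called without parental replicate 1 (−0.18 with adjusted p = 0.0485 and −0.18 with adjusted p = 0.0494) or without replicate 2 (−0.17 with adjusted p = 0.0424 and −0.19 with adjusted p = 0.0353, exact permutation tests), and boundary 6 also without full-length replicate 3b (−0.15, adjusted p = 0.0444, same test). Both were also called with symmetric matrices alone, which leave out parental replicates 1 and 2 (−0.27 with adjusted p = 0.044 for each), and in the bin directly upstream (−0.22 with adjusted p = 0.00196 at boundary 3 and −0.14 with adjusted p = 0.0431 at boundary 6, exact permutation tests).

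**Figure D2:**
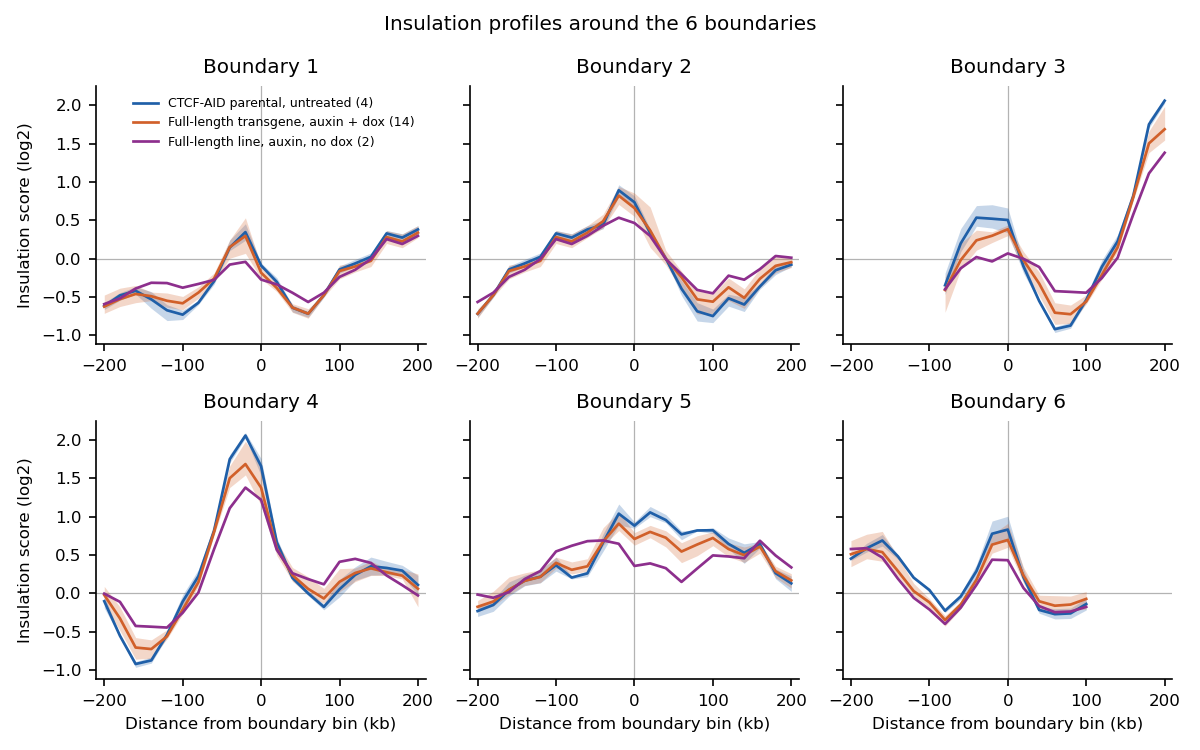
Mean insulation score (log2) in 20-kb bins up to 200 kb from each boundary bin (at 0) for parental, full-length and no-dox libraries, with bands from the lowest to the highest library for the first 2 groups and gaps where a bin has no score. Full-length cells follow the parental profile with lower peaks and shallower troughs, most at boundary 4, where the bin 20 kb upstream stood at 2.06 in parental, 1.69 in full-length and 1.38 in no-dox cells.

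Across the region the profile of full-length cells was flatter than the parental one. The SD of the score between bins was 0.52 ± 0.020 (SD, n = 4) per parental library and 0.47 ± 0.016 (SD, n = 14) per full-length library, a difference of −0.053 (p = 0.00196, two-sided exact permutation test). In the reference groups this SD was 0.56 in untagged, 0.44 in low-expression and 0.42 in no-dox cells. Of the 193 scored bins, 37 were called lower (19.2%) and 27 higher (14%) with the full-length transgene. Bins were sorted by the score in untagged cells, which belong to neither group. The library numbers of these cells lie close to those of the parental libraries, so the sorting may not be independent of them. Of the 106 bins above 0, 30 were called lower and 4 higher. Of the 87 bins at or below 0, 7 were called lower and 23 higher. Among the 41 bins with a CTCF peak, 14 were called lower and 2 higher, against 23 and 25 of the bins without a peak. The bins called higher numbered 17 without parental replicate 1 and 16 without replicate 2. With symmetric matrices alone the exact permutation tests called 0 bins, with 46 lower and 22 higher at an unadjusted p under 0.05, and with log2 of contacts within over across they called 0, with 11 lower and 9 higher.

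**Figure D3:**
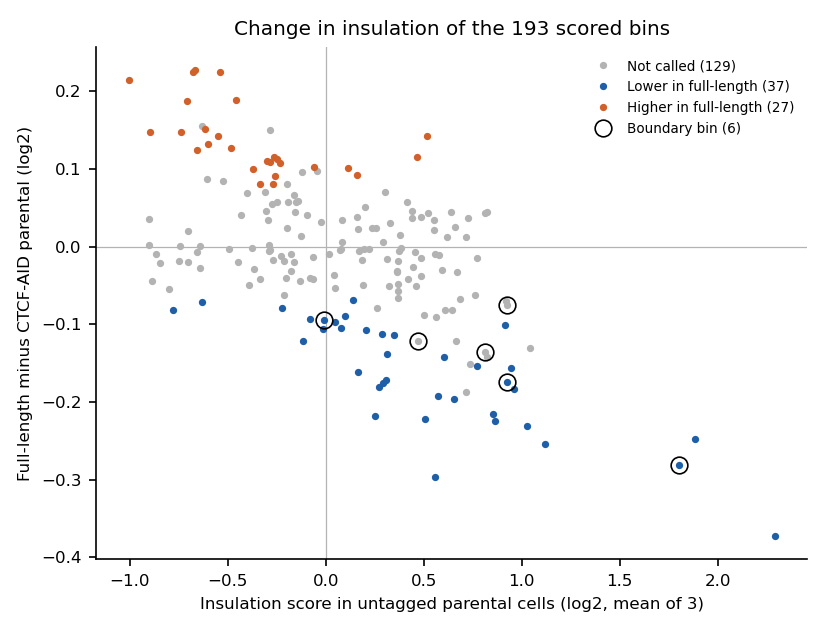
Difference in insulation between full-length and parental libraries (log2) against the mean score in untagged parental cells, with 1 point for each of the 193 scored bins. Bins called lower lie mostly at high untagged scores and bins called higher mostly at negative ones, and the boundary bins are circled.

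The 3 called bins with the largest falls lay beside boundaries 3 and 4. The bin directly upstream of boundary 4 (chrX:100651148-100671148), at Tsix and the 3′ end of Xist, fell by 0.37, from 2.06 ± 0.035 (SD, n = 4) to 1.69 ± 0.12 (SD, n = 14), with adjusted p = 0.00548 (exact permutation test, Benjamini-Hochberg over all scored bins). The bin 40 kb upstream of boundary 3 (chrX:100411148-100431148) fell by 0.30, from 0.53 to 0.24, and the third was boundary 4 itself. The largest rise, 0.23, was 40 kb downstream of boundary 3 (chrX:100491148-100511148), where the score went from −0.55 to −0.33. The next 2, also of 0.23 and 0.22, were adjacent bins (chrX:102091148-102111148 and chrX:102111148-102131148) far from any boundary, in the long stretch between boundaries 5 and 6 where they overlap no annotated gene.

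The insulation score reaches 100 kb to either side, so contacts across each boundary were also summed up to 500 kb, as log2 of observed over expected contacts (the expected value being the mean at the same distance in the same library). This measure was added after the data had been seen. Contacts rose across boundaries 5, 4, 6 and 1, in order of size, and did not pass the test at boundaries 2 and 3 (Benjamini-Hochberg over 6).

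Across boundary 5, parental libraries lay within −0.99 and −0.96. The lowest, median and highest full-length values were −0.87, −0.72 and −0.60, all above every parental one. The difference was 0.26 (adjusted p = 0.00392, exact permutation test), 19.4% more contact, with 0.23 and 0.35 within the runs. No-dox libraries stood at −0.35 in both, so 59.1% of the depletion had come back.

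Across boundary 4 the values were −1.24, −1.26, −1.25 and −1.19 in the parental replicates and from −1.30 through −1.10 to −0.93 in full-length libraries, a difference of 0.14 (adjusted p = 0.0157, exact permutation test). The level in low-expression cells (−1.0) was that without dox (−1.0), and the recovery in full-length cells was 41.5%. Contacts across boundary 1 rose by 0.090 (adjusted p = 0.0137) and across boundary 6 by 0.094 (adjusted p = 0.0176, exact permutation tests). At boundary 6 the no-dox libraries (−0.067 and −0.056) overlapped the parental range of −0.17 to 0.004, and no recovery can be given. There the full-length libraries (mean 0.029, from −0.020 to 0.098) and the low-expression libraries (0.11 and 0.12) all lay above the no-dox libraries. The parental and no-dox means were −0.065 and −0.061, so the full-length mean did not lie between them, unlike at boundaries 1 and 4. The cause of this rise was not tested. The calls at boundaries 1, 4 and 6 were lost without parental replicate 3 (adjusted p = 0.0588, 0.0588 and 0.0794) and with raw counts scaled, that at boundary 6 also without replicate 4 (adjusted p = 0.0794), and that at boundary 4 also with symmetric matrices alone (0.12, adjusted p = 0.132, exact permutation tests). Across boundary 2 the means were close (−0.37 and −0.38, adjusted p = 0.968), and across boundary 3 the difference was 0.081 (adjusted p = 0.131, exact permutation tests), with −0.072 and 0.16 within the runs and a call with symmetric matrices alone (0.23, adjusted p = 0.033, same test).

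**Figure D4:**
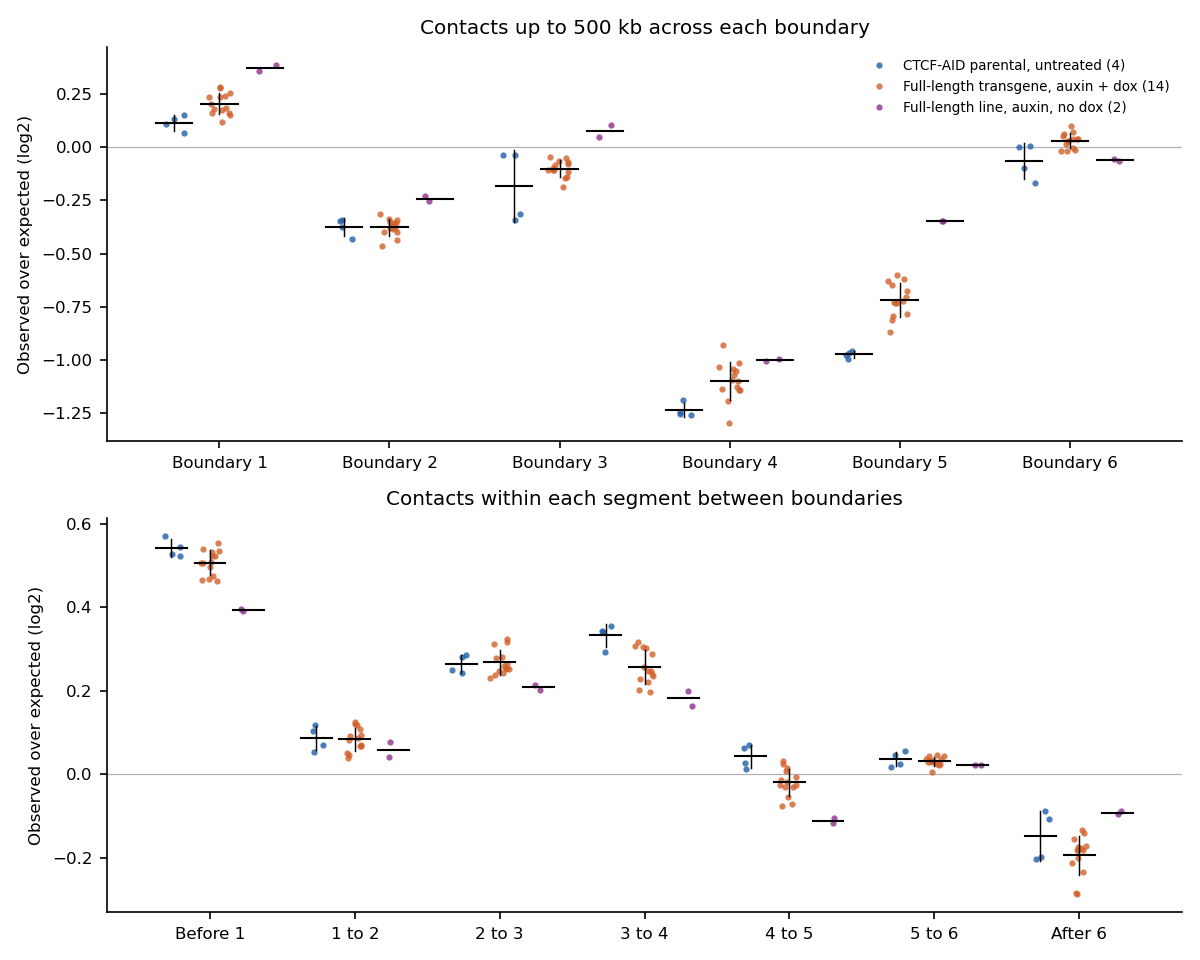
Log2 of observed over expected contacts up to 500 kb across each boundary (top) and within each of the 7 segments between boundaries (bottom), with 1 point per library, bars at group means and lines of 1 SD for groups of 3 or more. Across boundary 5 the 14 full-length libraries lie above the 4 parental and below the 2 no-dox libraries, and within segments the parental and full-length means differ by less than 0.1.

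The 6 boundary bins cut the region into 7 segments. Contacts within a segment were lower in full-length cells in the 2 that flank boundary 4 (Benjamini-Hochberg over 7). Between boundaries 3 and 4 (chrX:100471148-100671148), a stretch of 200 kb with Cdx4, a caudal homeobox gene, Chic1 and Tsx, the parental values were 0.34, 0.35, 0.34 and 0.29. Full-length libraries ranged from 0.20 through 0.25 to 0.32, with 10 of 14 below every parental one. The difference was −0.076 (adjusted p = 0.016, exact permutation test), a change in contacts of −5.12%, with −0.10 and −0.080 within the runs and a recovery of 49.7%.

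Between boundaries 4 and 5 (chrX:100691148-101211148), with Zcchc13 and Rlim, the mean went from 0.044 ± 0.027 (SD, n = 4) to −0.020 ± 0.033 (SD, n = 14), a difference of −0.063 (adjusted p = 0.016, exact permutation test). Here 11 of 14 full-length libraries lay below all parental ones, and the difference was −0.089 and −0.063 within the runs. Both calls depend on the parental libraries, since the adjusted p was 0.0721, 0.0721 and 0.0515 for either segment without parental replicate 1, 2 or 3 (exact permutation tests), and both were lost with raw counts, with symmetric matrices alone and without division by the expected contact.

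The other 5 segments were not called. The segment before boundary 1, with Ogt, the O-GlcNAc transferase, had means of 0.54 in parental and 0.51 in full-length cells (adjusted p = 0.105, exact permutation test), and was called with median bins (−0.050, adjusted p = 0.0252, same test). The longest domains had close means. Between boundaries 2 and 3, with Hdac8, a histone deacetylase that acts on cohesin, and Phka1, the means were 0.26 and 0.27 (adjusted p = 0.849). Between boundaries 5 and 6, with Atrx, a chromatin remodeller, and Fgf16, they were 0.037 and 0.031 (adjusted p = 0.601, exact permutation tests). The segment after boundary 6, with Pgk1, differed by −0.045 (adjusted p = 0.205) and that between boundaries 1 and 2, with Rps4x, by −0.0034 (adjusted p = 0.849, same test).

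No distance class was called. Contacts per class were taken as log2 of their mean over the mean of the whole map, in 6 classes. From 40 to 80 kb the means were 3.16 in parental and 3.14 in full-length cells, from 100 to 180 kb 2.08 and 2.07, from 200 to 380 kb 1.17 and 1.20, and from 400 to 780 kb 0.21 and 0.22. From 800 to 1580 kb they were −1.12 ± 0.063 (SD, n = 4) and −1.06 ± 0.082 (SD, n = 14), with an unadjusted p of 0.152, and at 1600 kb and more −2.42 ± 0.24 and −2.54 ± 0.23. Adjusted p-values ranged from 0.665 to 0.834 (exact permutation tests, Benjamini-Hochberg over 6), and no class had an unadjusted p under 0.05. At the largest distances the parental libraries split by run, with −2.67 and −2.59 in replicates 1 and 2 and −2.26 and −2.18 in replicates 3 and 4, and the difference was 0.11 and 0.19 within the runs against −0.11 over all libraries. From 800 to 1580 kb the full-length libraries were higher in both runs, by 0.087 and 0.18. At shorter distances they were lower in both runs, with the groups apart, from 100 to 180 kb (−0.043 and −0.10). The same held from 200 to 380 kb (−0.036 and −0.034), where the mean over all libraries was higher. The differences within runs were −0.0093 and −0.083 from 40 to 80 kb, and −0.0049 and 0.012 from 400 to 780 kb. Against untagged cells in place of CTCF-AID parental cells, 4 classes were called. Contacts were then lower with the transgene from 40 to 180 kb (−0.075 and −0.069 in the 2 classes) and higher from 400 to 1580 kb (0.069 and 0.17).

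Contacts between bins that both hold a CTCF peak, from 100 to 1000 kb apart, had close means over all 344 bin pairs. Log2 of observed over expected was 0.37 ± 0.024 (SD, n = 4) in parental and 0.37 ± 0.026 (SD, n = 14) in full-length cells (p = 0.719, two-sided exact permutation test), and 0.33 without dox. From 200 to 600 kb the same measure was 0.047 higher in full-length cells (p = 0.00327, same test). The pairs were therefore divided, after the data had been seen, by whether a boundary bin lay between their 2 bins.

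Within 1 segment (139 bin pairs), contacts between peak bins were lower with the transgene, and across a boundary they were higher. Within a segment the parental values were 0.53, 0.54, 0.61 and 0.61 and the full-length values ranged from 0.43 through 0.50 to 0.59. The difference was −0.068 (adjusted p = 0.0248, exact permutation test, Benjamini-Hochberg over 2), with a recovery of 66.8%, and it was not called without parental replicate 3 (−0.054, adjusted p = 0.109) or 4 (−0.057, adjusted p = 0.0882, exact permutation tests). Across a boundary the parental values were 0.12, 0.12, 0.077 and 0.14. All 14 full-length libraries lay above them, from 0.17 through 0.20 to 0.23. This difference was 0.088 (adjusted p = 0.00131, same test), with 0.067 and 0.085 within the runs, and it was called in every one of the 24 alternatives that could reach the threshold. A rise was not particular to peak bins. Over all bin pairs, whether or not they hold peaks, the median difference was 0.11 across 1 boundary (4663 pairs). It was 0.0525 across more boundaries (10166 pairs) and 0.028 within a segment (5789 pairs), on log2 of the ratio plus 0.1. Whether peak pairs differ from these was not tested.

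The pairs were also divided by the strand of their motifs. A bin was taken as plus or minus where the cores of its peaks lay on that strand alone (15 plus and 14 minus bins). Convergent pairs, plus upstream and minus downstream (25 bin pairs), had the most contacts over expected and lost some of them with the transgene. They stood at 1.08, 1.06, 1.15 and 1.08 in the parental replicates and from 0.68 through 0.89 to 1.11 in full-length libraries. Of these, 12 of 14 lay below every parental one. The difference was −0.18 (adjusted p = 0.0216, exact permutation test, Benjamini-Hochberg over 3), a change in contacts of −11.8%, with −0.20 and −0.18 within the runs. Without dox convergent pairs stood at 0.54 and 0.44, which puts the recovery at 69.6%. The call was lost without parental replicate 3 (−0.16, adjusted p = 0.0971) and with symmetric matrices alone (−0.20, adjusted p = 0.0659, exact permutation tests).

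Tandem pairs, on the same strand (48 bin pairs), and divergent pairs (25 bin pairs) differed the other way and were not called. Tandem pairs went from 0.15 ± 0.075 to 0.23 ± 0.047 (adjusted p = 0.0598) and divergent pairs from −0.11 ± 0.16 to −0.0030 ± 0.077 (adjusted p = 0.101, exact permutation tests, SD, n = 4 and n = 14). Without dox, divergent pairs stood at 0.30 and 0.35. Tandem pairs were called without parental replicate 1 (0.10, adjusted p = 0.0176) or full-length replicate 9 (0.077, adjusted p = 0.0429), and divergent pairs without parental replicate 4 (0.17, adjusted p = 0.0309, exact permutation tests). Tandem pairs were also called with own balancing after thinning to equal counts (0.084, adjusted p = 0.0462) and divergent pairs with raw counts scaled (0.16, adjusted p = 0.0363, same test). Whether the change differs between orientations was not tested.

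**Figure D5:**
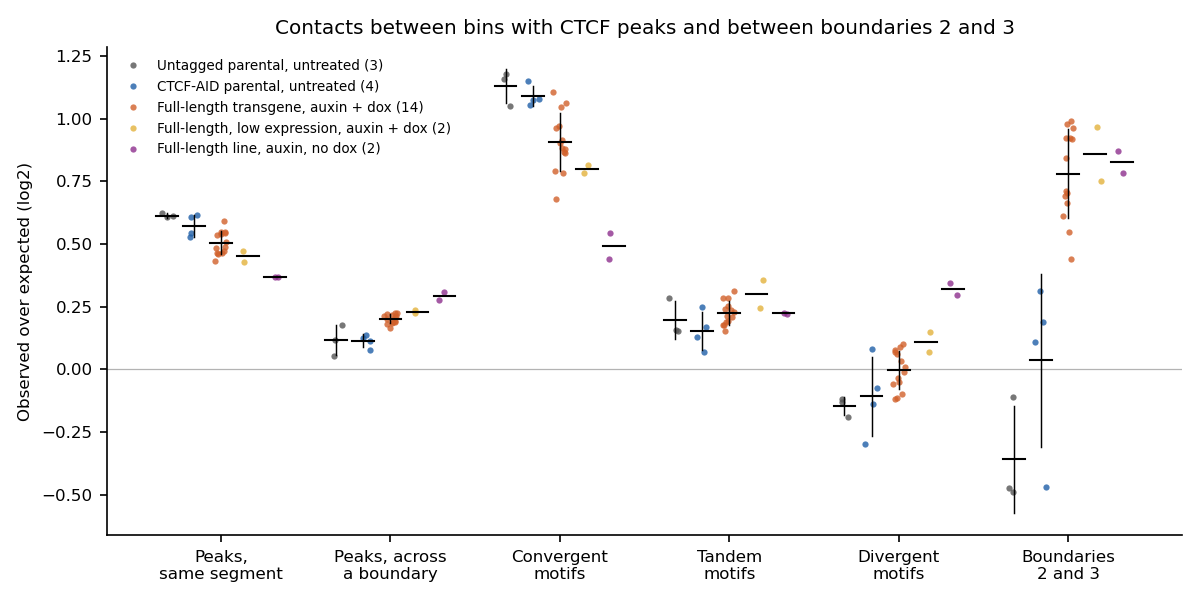
Log2 of observed over expected contacts between bins with CTCF peaks within a segment or across a boundary, by motif orientation, and between boundaries 2 and 3, with 1 point per library in 5 groups, bars at means and lines of 1 SD for groups of 3 or more. Convergent pairs fall from parental (1.09) through full-length (0.91) to no dox (0.49), while contacts between boundaries 2 and 3 are as high in full-length (0.78) as in no-dox cells (0.83).

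Of the 15 pairs of boundaries, 1 was called, between boundaries 2 and 3, the ends of the domain with Hdac8 and Phka1. Log2 of observed over expected contacts in the 3 by 3 bins at their crossing was 0.31, 0.11, 0.19 and −0.47 in the parental replicates. All 14 full-length libraries lay higher, from 0.44 through 0.78 to 0.99. The difference was 0.74 (adjusted p = 0.0098, exact permutation test, Benjamini-Hochberg over 15), 67.5% more contacts, with 0.54 and 0.82 within the runs. The 2 no-dox libraries (0.78 and 0.87) and the 2 with low expression (0.97 and 0.75) lay at the same level as full-length cells, so the recovery was 6.04%. Untagged cells had a lower mean than parental ones, −0.36, but their range of −0.49 to −0.11 overlapped that of the parental libraries. Leaving out any 1 library kept the call, with differences from 0.58 to 0.84, and with symmetric matrices alone it was 0.92 but not called (adjusted p = 0.141, same test).

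The motifs at both ends of this domain lie on the plus strand (the windows of boundaries 2 and 3 above), a tandem arrangement. The pair with the next lowest p joined boundaries 2 and 4 and had means of 0.76 and 1.06, which did not pass the test (unadjusted p = 0.0248, adjusted p = 0.186, exact permutation test), with 1.29 without dox. It was called with raw counts scaled (0.33, adjusted p = 0.0495) and without division by the expected contact (0.44, adjusted p = 0.0294, same test). Between boundaries 4 and 5, the ends of the Xist and Rlim domain, the means were 0.40 in both groups and 0.050 without dox. The remaining 12 pairs differed by −0.23 to 0.55 with adjusted p-values from 0.277 to 0.504 (same test), over 9 bin pairs each.

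Over single bin pairs, few differences passed the test. Of 20618 bin pairs, limma called 0 lower (0% of those tested) and 2 higher (0.0097%) with the full-length transgene, on log2 of observed over expected contacts plus 0.1. At an unadjusted p under 0.05, 620 were lower and 1431 higher. The count of higher pairs was 0 without parental replicate 3 or 4 or full-length replicate 2, 10 or 13, 1 without full-length replicate 1, 4 or 11, 4 or 5 without full-length replicate 5, 12 or 4b, and 6 and 25 without parental replicates 1 and 2. The count of lower pairs was 3 without parental replicate 2, 2 without full-length replicate 11 and 1 without parental replicate 3 or full-length replicate 9. The median difference was 0.059 over all pairs, and 0.11 over the 4663 pairs with 1 boundary between their bins against 0.028 over the 5789 pairs within a segment. Over all pairs it depended on the parental libraries and the runs. It was 0.0081 with library runs as blocks and −0.0042 with forward against reverse matrices. Without parental replicates 1, 2, 3 and 4 it was 0.10, 0.11, 0.0155 and 0.0066. The values by boundary are those with all libraries. Of the pairs across 1 boundary, 63.5% were higher in full-length cells, against 55% within a segment and 53.9% of the 10166 pairs across more boundaries.

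The 2 called pairs were both higher with the transgene. The pair with the larger difference joined bins 420 kb apart (chrX:102171148-102191148 and chrX:102591148-102611148) between boundaries 5 and 6, where no gene is annotated. Its ratio of observed to expected contacts was 0.40 to 0.56 in parental and 0.74 to 1.06 in full-length libraries, a log2 difference of 0.81 ± 0.12 (SE, adjusted p = 0.0344, limma). The other joined Hdac8 (chrX:99531148-99551148) with Tsix (chrX:100631148-100651148), 1100 kb apart. Its ratio was 0.72 to 0.94 in parental and 1.18 to 1.84 in full-length libraries, a log2 difference of 0.71 ± 0.11 (SE, adjusted p = 0.0463, limma). No-dox libraries averaged 0.96 and 1.48 at these pairs, close to the full-length means of 0.90 and 1.44.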

How the data were processed

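The authors mapped 5C reads in mm9 coordinates and deposited raw counts per primer pair. The deposited signal in the corrected matrices results from iterative correction of those counts by the authors, fragment by fragment. The deposited peak list gives coordinates alone and was called in the full-length line after 2 days, against 4 days for 5C. Count matrices of 2 full-length libraries and of no-dox replicate 2 are incomplete and were left out where counts were needed.

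The mean corrected value over primer pairs was taken in 20-kb bins, the first 2 diagonals were filled, and 193 of 230 bins, with at least 50% of their 100-kb square measured, were scored. All 922 fragments start at a HindIII site of the reference. Expected contacts are means at the same distance, over bin pairs at least 2 bins apart. Groups were compared by exact two-sided permutation of the difference in means and, for bin pairs, by limma 3.58.1 with trend (R 4.3.3), with Benjamini-Hochberg adjustment and a call at an adjusted p under 0.05. Both tests were checked on simulated data. All boundaries, segments, distances and boundary pairs were reported, and of single bins and bin pairs the 3 called with the largest fall and rise. Boundaries, lists and tests were chosen with earlier results of these data known. No 2 libraries shared over 6.60% of equal nonzero counts. Alternatives were other corrections, binning, windows, scores, references, formats and blocks, and each library left out. Equal replicate numbers pair the libraries only in part (4 of 6 pairs with a correlation over 0.1, from −0.44 to 0.51) and were not used as pairs. These correlations are of deviations of the insulation profile from the group mean. Between parental and full-length libraries of the same run their median was 0.32 (8 pairs, from 0.057 to 0.51). For the 48 other pairs it was −0.058. Libraries of a run thus shared deviations, and the main permutations did not keep to runs. The other groups of the series were not used here.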

Additional observations from a re-analysis of the deposited data

How the results depend on the processing

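The mean over the 6 boundaries was lower in full-length cells under every alternative and was called in all but those that follow. It was −0.15 (p = 0.107) with log2 of contacts within over across, which called 0 boundaries and 0 bins lower or 0 higher, −0.097 (p = 0.333) with forward against reverse matrices, −0.16 (p = 0.0556) with a replicate block and −0.13 (p = 0.0556) within library runs (exact permutation tests). The last 3 cannot reach a p under 0.0556, so they give no counts of calls for boundaries, bins, segments, distances or pairs. In limma, each of the 3 called 0 bin pairs lower and 0 higher. Leaving out each library moved the mean difference from −0.17 to −0.12, the boundaries called from 3 to 5, the bins called lower from 26 to 38 and higher from 16 to 30 (17 without parental replicate 1 and 16 without replicate 2), the segments called from 0 to 2, the bin pairs called lower from 0 to 3 and higher from 0 to 25 (6 and 25 without parental replicates 1 and 2, and 0 without 3 or 4), the contacts between bins with peaks from −0.012 to 0.0050 and the recovery from 57.8% to 65.1%. Among differences that were not called, it moved segment 1 to 2 from −0.014 to 0.0072, segment 2 to 3 from −0.0037 to 0.011, segment 5 to 6 from −0.012 to 0.00087, 100 to 180 kb from −0.029 to 0.00075, 200 to 380 kb from −0.0014 to 0.046, boundaries 1 and 5 from −0.032 to 0.27, boundaries 4 and 5 from −0.052 to 0.033 and contacts across boundary 2 from −0.022 to 0.0087. It left the distance classes called at 0 and the boundary pairs at 1. Recovery was 59.4% to 63.4% under other corrections, bins and scores. Where it was taken from the counts (own balancing, raw or thinned), the level without dox came from no-dox replicate 1 alone.

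Runs are sets of neighbouring library numbers. Raw counts without correction gave 0 segments, 2 boundary pairs and 14 bins called higher. The 200-kb square gave 56 bins called lower. Symmetric matrices alone gave 0 segments, 0 boundary pairs, 0 bins lower and 0 higher, and 9 bin pairs lower and 198 higher, with a median difference over all pairs of 0.19 against 0.059. Untagged cells as reference gave 5 boundaries, 4 distance classes, 2 boundary pairs, 58 bins lower, and 47 bin pairs lower and 124 higher. It added calls at boundaries 2 (−0.27) and 3 (−0.091), segment 5 to 6 (−0.018), boundaries 3 and 4 (0.36) and divergent pairs (0.14). Without division by expected contacts, 0 segments and 2 boundary pairs were called. Median bins gave 8 bin pairs lower and 4 higher, with a median difference of 0.15, and a pseudocount of 0.5 gave 0 higher. The cause of these changes was not tested, beyond the fewer parental libraries of the formats and runs.

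Differences not called with all libraries changed sign as follows. With raw counts, boundary 2 was 0.0084, segment 2 to 3 −0.016, 400 to 780 kb −0.0096 and boundaries 4 and 6 0.038. Boundaries 4 and 5, near 0 throughout, were −0.028 with own balancing, −0.023 after thinning, −0.024 with median bins, −0.16 with forward against reverse matrices, −0.087 within runs and −0.13 against untagged cells. Median bins gave 0.0037 for segment 1 to 2, 0.035 at 1600 kb and more and 0.42 for boundaries 1 and 4, and gave no value for some distant boundary pairs. Symmetric matrices gave 0.019 and −0.015 for segments 1 to 2 and 2 to 3, 0.0028 after boundary 6, 0.025 at 100 to 180 kb and 0.026 across boundary 2. Forward against reverse matrices gave 0.030 at boundary 3, 0.0072 for segment 5 to 6, −0.036, −0.0049 and 0.11 at 200 to 380 kb, 400 to 780 kb and 1600 kb and more, −0.035, −0.19 and −0.32 for boundary 1 with 3, 5 and 6, and −0.072 across boundary 3. The replicate block gave 0.012 for segment 1 to 2 and 0.0085 across boundary 2. Library runs gave 0.0061 at boundary 2, −0.035 and 0.15 at 200 to 380 kb and 1600 kb and more, and −0.060 for boundaries 1 and 3. Against untagged cells, boundaries 1 and 6 were −0.33, 2 and 5 −0.064, 2 and 6 −0.27 and 4 and 6 0.078, and contacts across boundary 2 were 0.070 and called (adjusted p = 0.0212, exact permutation test). Contacts between bins with peaks were 0.047 and called (p = 0.00327, exact permutation test) from 200 to 600 kb. Segment 2 to 3 was −0.0026 without division by expected.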
